A study of Mus musculus with 12 samples.

Results

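Interferon-stimulated genes are the genes that cells switch on when they sense an interferon, and 39 of them, of 24107 genes in the table, are described here across 12 RNA-seq libraries of C57BL/6 mouse bone marrow cells. They were chosen by symbol, and each of the 39 symbols was found. Of the 39, 38 reached 1 FPKM, a level scaled to gene length and library depth, in at least 3 libraries and were tested among 11462 such genes, and Mx2 did not. The libraries fall into 4 groups of 3. Control megakaryocyte-erythroid progenitors (control MEP, Ctrl-MEP in the labels), the marrow cells that give rise to platelets and red cells, and unselected control marrow (Ctrl-Bulk) came from wild-type C57BL/6 mice. Leukemic MEP (L-MEP) and GFP+ marrow cells (Prdm16s-Bulk) have the genotype Prdm16s, the short form of the transcription factor Prdm16, and were taken from C57BL/6 recipients with leukemia. No age is given, nothing says which promoter drives Prdm16s or what carries GFP, and the labels do not say that libraries of a group come from separate mice, so each p-value measures the spread between these libraries, which may be technical. Prdm16s, leukemia and being a recipient go together in these groups and cannot be told apart. The same holds in marrow for the GFP+ selection, which the control marrow lacks.

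As background, type I interferons bind the receptor Ifnar1/Ifnar2 and activate the kinases Jak1 and Tyk2, after which a complex that holds Stat2 and Irf9 binds a DNA element called the ISRE beside the target genes. Interferon gamma acts through Ifngr1/Ifngr2, and its target genes carry another element, the GAS. Many target genes also respond to interferon regulatory factors without an interferon, and blood stem and progenitor cells are known to keep some of them on at rest. The protein products block viruses at entry, degrade viral RNA, mark proteins with Isg15, sense foreign nucleic acid or shut the pathway down again.

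The whole reads behind the FPKM values came to between 0.572 and 9.71 M per library. Leukemic MEP 3 held 0.572 M and GFP+ marrow 2 held 1.15 M, and the others at least 6.72 M. GFP+ marrow 3 held 9.44 M reads but the fewest genes above 0 (11144). The label check was Prdm16 itself: it was at 0.363 to 0.957 FPKM in the 6 control libraries and at 6.35 to 15.3 in the 6 Prdm16s libraries, and the table does not separate Prdm16s from other reads of the gene. Leukemic MEP 3 went against the other libraries of its label. It read Gata1, a defining factor of the MEP, at 37.7 FPKM against 242 and 209.6 in leukemic MEP 1 and 2, and its 9 mature neutrophil markers summed to 72216 FPKM against 499 and 1708. The counts of genes called in leukemic MEP are therefore given with and without it, and so are the values of some genes.

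The promoters of the 39 genes were read first, since the ISRE and the GAS are what the name of the group refers to. RefSeq (GRCm38.p6) gave a promoter, from 250 bases before to 50 after the start, for 30 of them. Dhx58, Zbp1, Oas2, Usp18, Mx1, Mx2, Parp9, Parp14 and Rtp4 had no entry. The ISRE was searched as GAAANNGAAA on both strands (TTTCNNTTTC on the other). It was present in 17 of the 30 genes (56.7%), against 3.99% of the 27025 genes in the promoter table. The GAS, searched as TTCNNNGAA, which reads the same on both strands, was present in 9 of 30 (30%), against 9.55% of all genes. Both were found in 5 genes, and 2 GAS matches overlapped an ISRE match. Of the 27 ISRE matches, 20 lay within 150 bases before the start and 5 after it. A match describes the letters only, and says nothing of a bound factor.

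The windows below run from 110 bases before to 30 after the start on the gene's own strand, with ISRE matches in capitals. They show 4 genes that were higher in both Prdm16s populations (Ifitm3, Oas1a, Samhd1, Dtx3l), Isg20 (the first of 3 starts) and Isg15. Isg20 had the deepest fall in both in the fit of all 12 libraries, and Isg15 passed no test.
Ifitm3: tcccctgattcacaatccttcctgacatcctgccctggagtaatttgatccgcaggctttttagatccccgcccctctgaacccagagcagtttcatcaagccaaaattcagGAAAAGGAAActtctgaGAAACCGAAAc
Oas1a: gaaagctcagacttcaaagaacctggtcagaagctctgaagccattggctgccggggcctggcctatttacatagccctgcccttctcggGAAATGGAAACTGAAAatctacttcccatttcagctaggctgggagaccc
Samhd1: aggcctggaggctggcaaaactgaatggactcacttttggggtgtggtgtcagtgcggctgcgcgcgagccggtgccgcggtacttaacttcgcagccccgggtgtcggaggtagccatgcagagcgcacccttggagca
Dtx3l: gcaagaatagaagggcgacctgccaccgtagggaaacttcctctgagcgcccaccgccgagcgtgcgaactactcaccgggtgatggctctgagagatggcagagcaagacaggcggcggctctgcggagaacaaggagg
Isg20: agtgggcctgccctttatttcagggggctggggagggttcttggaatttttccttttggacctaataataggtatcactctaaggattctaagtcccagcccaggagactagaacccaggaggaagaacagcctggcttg
Isg15: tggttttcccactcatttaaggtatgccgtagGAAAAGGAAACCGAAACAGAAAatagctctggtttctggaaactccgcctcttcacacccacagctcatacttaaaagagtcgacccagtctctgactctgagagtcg
They lie at chr7:141010715-141010854, chr5:120907496-120907635, chr2:157135067-157135206, chr16:35938998-35939137, chr7:78913314-78913453 and chr4:156200789-156200928 in GRCm38.p6, in the order printed, with Isg20 on the plus strand and the other 5 on the minus strand. Isg15 held 3 ISRE matches in a row, each 6 bases after the one before. Oas1a held 2 with the same spacing, and Ifitm3 held 2 just after its start. Samhd1, Dtx3l and Isg20 held none in the printed window or in the full promoter.

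Among the 30 genes with a promoter, an ISRE match was present in 4 of the 9 called higher in leukemic MEP, in 0 of the 2 called lower and in 13 of the 19 that were not called. In marrow the counts were 2 of 4, 0 of 1 and 15 of 25. The motif was thus found in a smaller share of the genes that rose than of those that were not called, a difference that was not tested.

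**Figure D1:**
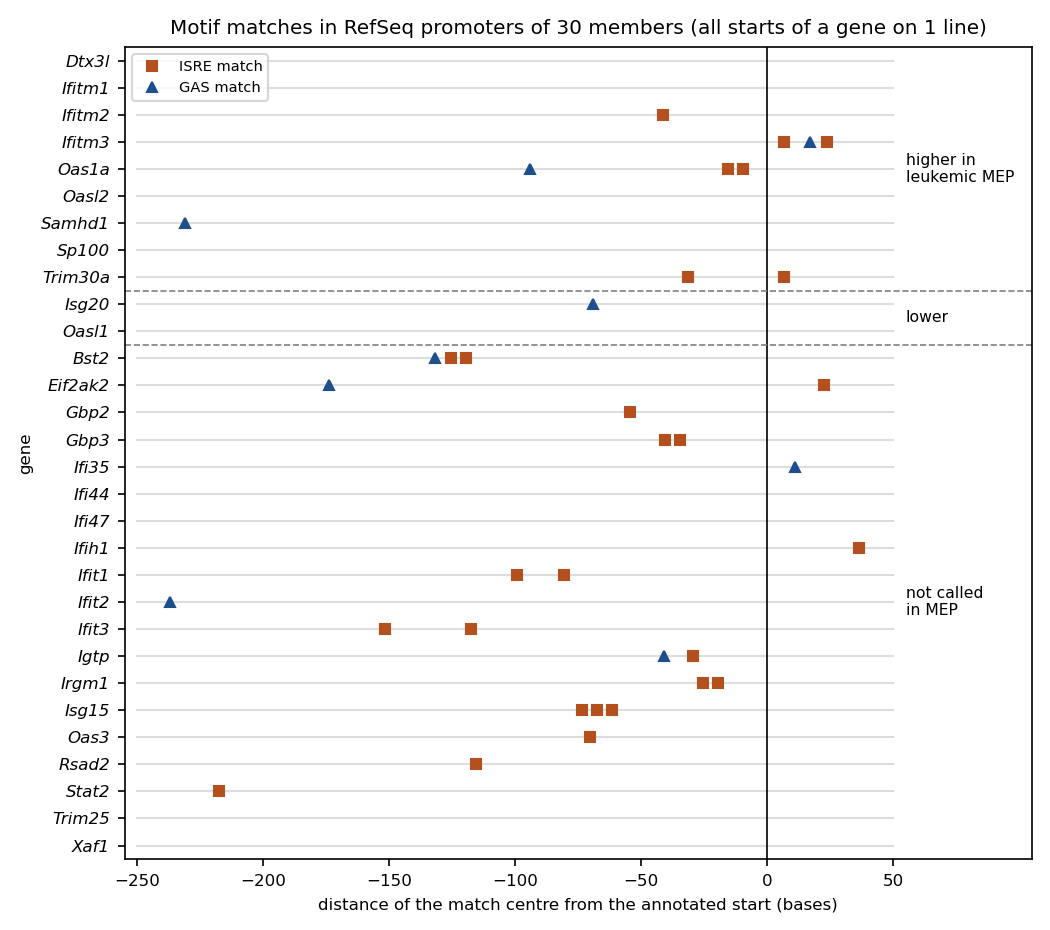
Position of each ISRE match (square) and GAS match (triangle) in the promoters of the 30 genes with an entry, as the distance in bases of the match centre from the annotated start (vertical line), with all starts of a gene on 1 line and genes grouped by their call in leukemic against control MEP. Of the 27 ISRE matches, 20 lie within 150 bases before the start, and 13 of the 17 genes that hold one are in the group that was not called.

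The genes differed widely in level. FPKM values are per length, so that genes can be compared. Ifitm2 and Ifitm3, membrane proteins that stop viruses from fusing with the cell, had the highest means over the 12 libraries, 727 and 499 FPKM. Bst2, which tethers budding virus to the membrane, followed at 72.0, Ifi47, an interferon-gamma-induced GTPase, at 70.4, and Irgm1, another GTPase of that class, at 51.9. At the other end, 14 of the 39 were under 10 FPKM in every library, among them Ifit1, Ifit2, Ifit3, Mx1, Mx2, Oas2, Oas3 and Rsad2. At least 10 FPKM in every library was reached by 7 genes. The group with the highest mean was GFP+ marrow for 17 genes, leukemic MEP for 9, control marrow for 8 and control MEP for 5. The lowest mean was that of control MEP for 26. Such counts were not made over all genes. Over the list, the number of genes at 10 FPKM or more ran from 11 to 13 in control MEP, from 15 to 19 in leukemic MEP, was 16 in each control marrow library, and ran from 17 to 20 in GFP+ marrow. The summed level of the 39 genes was 832 to 1335 FPKM in control MEP, 1814 to 2463 in leukemic MEP, 1272 to 1527 in control marrow and 2320 to 2579 in GFP+ marrow. Without Ifitm2 and Ifitm3 these sums were 418 to 498, 512 to 561, 547 to 611 and 588 to 626, so that most of the separation in summed level lay in these genes. Reads over the 39 genes came to 1472 in leukemic MEP 3 and 2883 in GFP+ marrow 2 and to between 9196 and 28279 elsewhere. Of the 39, 11 had under 10 reads in leukemic MEP 3 and 7 in GFP+ marrow 2, against 1 to 6 in the other libraries.

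**Figure D2:**
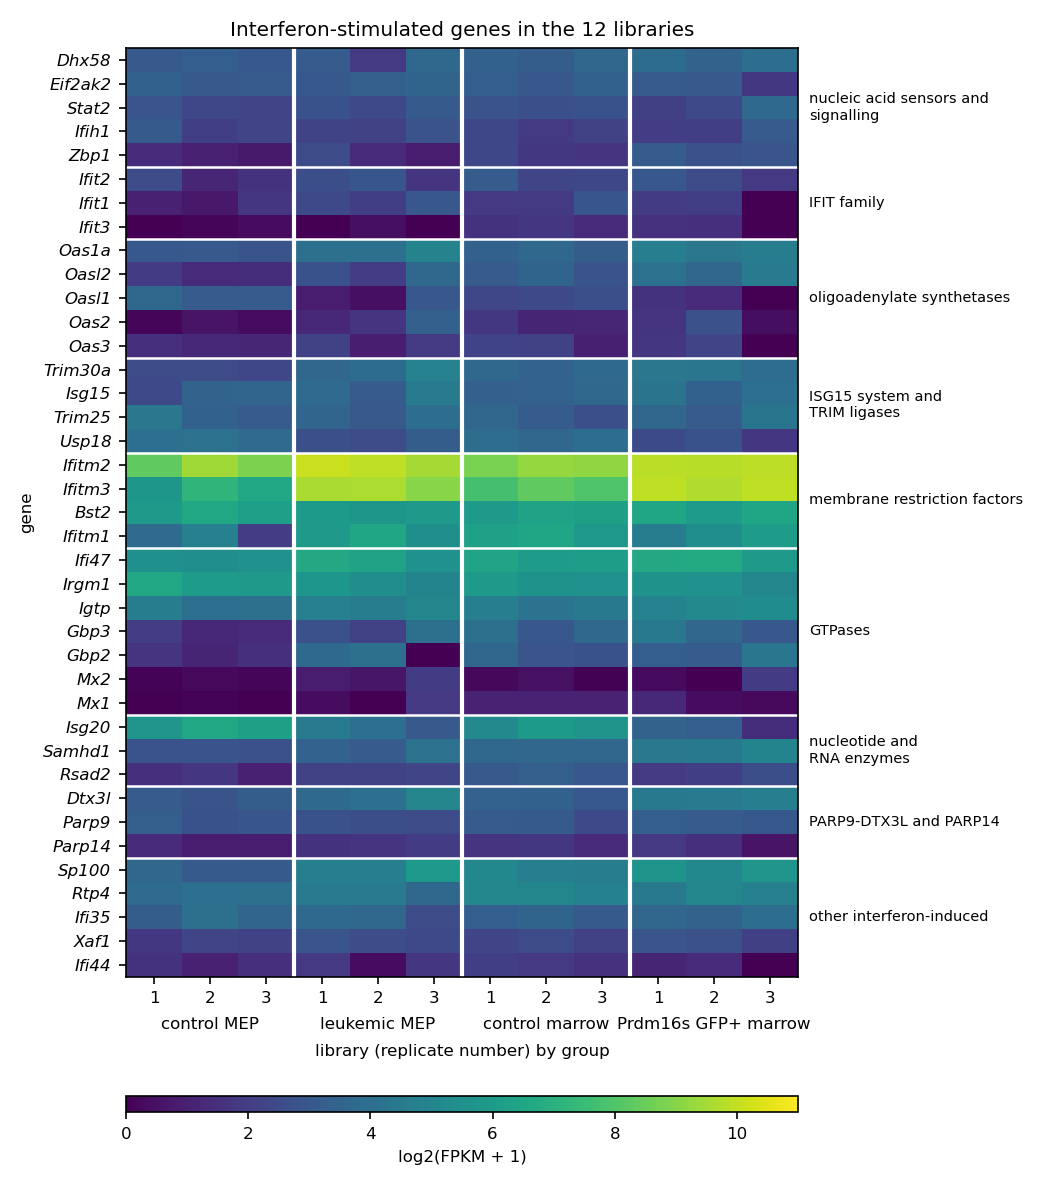
Level of the 39 genes (rows, grouped by role) in the 12 libraries (columns, by group and replicate number), as log2(FPKM + 1) on a colour scale from 0 to 11. Ifitm2 and Ifitm3 are the brightest rows, 14 genes stay under 10 FPKM in every library, and control MEP holds the lowest mean for 26 of the 39.

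The first comparison asks how leukemic MEP differ from control MEP. Ifitm3, Ifitm1, Ifitm2, Sp100, Trim30a, Oas1a, Oasl2, Dtx3l and Samhd1 rose in leukemic MEP, and Isg20, Oasl1 and Usp18 fell. That is 9 genes higher, where 13.7% of all tested genes were called higher, and 3 lower, where 12.3% were, so 31.6% of the 38 tested genes were called against 26% of all genes (limma on log2(FPKM + 1), Benjamini-Hochberg adjusted p under 0.05 over all genes). The median difference over the 38 was 0.59 on the log2 scale against 0.02 over all genes. Of the 38 differences, 26 were above 0, where 50.7% of all genes were. In 16 genes (42.1%) every leukemic library lay above every control library, which held for 21.1% of all genes, and in 4 every one lay below (10.5%), against 19.7%. Without leukemic MEP 3, 9 genes were again called higher (15% of all genes) and the same 3 lower (12.1%). Of these 9, 7 were shared. Among them the rises of Sp100, Trim30a, Oas1a and Dtx3l were smaller without this library, at 1.43, 1.29, 1.07 and 0.83. Those of Ifitm1, Ifitm2 and Ifitm3 were larger. Oasl2 (0.82, adjusted p = 0.116) and Samhd1 (0.51, adjusted p = 0.128) lost the call, and Gbp2 (2.5, adjusted p = 0.000411) and Ifi47 (0.97, adjusted p = 0.00896) gained it. In a fit of the 6 MEP libraries alone, 4 genes were called higher (Ifitm3, Sp100, Trim30a and Oas1a) and 2 lower (Isg20 and Usp18). Of all 11462 tested genes, that fit called 957 higher and 741 lower.

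Cell markers moved in the same libraries. The 10 erythroid markers in the table summed to between 7129 and 8621 FPKM in control MEP and between 437 and 1349 in leukemic MEP, and 7 of the 10 fell. The 9 megakaryocyte markers all rose, from sums of 13.4 to 129 FPKM to sums of 371 to 5811. The 9 mature neutrophil markers summed to between 17.3 and 293 FPKM in control MEP and between 499 and 72216 in leukemic MEP, and 4 of the 9 rose. The 5 primary granule markers in the table all rose, from sums of 10.1 to 109 FPKM to 576 to 22897, the last in leukemic MEP 3, with 811 in leukemic MEP 2. The plasmacytoid and conventional dendritic markers, cells known for interferon production, summed to between 40.8 and 70.8 FPKM in control MEP and between 21.7 and 55.8 in leukemic MEP, with Siglech at 0 in all 6 libraries. Monocyte and macrophage markers summed to between 3.98 and 13.0 FPKM in control MEP and to 14, 12.2 and 1277 in leukemic MEP 1, 2 and 3. T and NK cell markers summed to between 16.9 and 88.5 FPKM in control MEP and between 381 and 599 in leukemic MEP. Of the 5 T and NK cell markers tested, 1 was called, Nkg7, and Klrd1 was at 0 in every leukemic MEP library. The part of these shifts in the interferon-stimulated genes was not tested, apart from the values without leukemic MEP 3. In bulk RNA, a change in the cells present and a change of RNA per cell cannot be told apart.

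In marrow, the comparison is between GFP+ Prdm16s cells and unselected control marrow. Ifitm3, Oas1a, Dtx3l and Samhd1 rose and Isg20 and Usp18 fell. These 4 higher calls stand against 3.02% of all genes called higher, and the 2 lower calls against 6.03%, so that 15.8% of the 38 were called where 9.05% of all genes were. With libraries rescaled to equal FPKM totals, the calls were 2 higher and 3 lower, so the split between higher and lower depends on the scaling, which moved the median of all genes from -0.05 to -0.25. Without leukemic MEP 3, which enters here only through the shared estimate of the spread, 5 genes were called higher (8.23% of all genes), with Ifitm2 added, and 4 lower (10.4%), with Oasl1 and Rsad2 added. Leaving out 1 of the 6 marrow libraries left 1 or 2 genes called higher. The median difference was 0.23 against -0.05 over all genes. Every GFP+ library lay above every control library for 10 genes (26.3%, against 17.6% of all genes) and below for 5 (13.2%, against 19.6%). Here the 10 erythroid markers all fell, from sums of 2262 to 3042 FPKM to sums of 69.5 to 684, and 5 of 10 monocyte and macrophage markers fell, from sums of 1803 to 1899 to sums of 421 to 817. Of 5 tested markers each, 4 dendritic, 4 B cell and 3 T and NK cell markers fell, with Pax5, Rag1, Cd3e, Cd2, Klrd1 and Klrb1c at 0 in all 3 GFP+ libraries. Among the mature neutrophil markers 0 of 9 were called, with sums of 62914 to 78113 FPKM in control marrow and 62375 to 98037 in GFP+ marrow. The 5 primary granule markers summed to 13260 to 15949 FPKM in control marrow and 28486 to 31915 in GFP+ marrow, with 0 of 5 called, and the 9 megakaryocyte markers to 177 to 244 and 315 to 606, with 2 higher and 1 lower. The part of these shifts was not tested.

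All 6 genes called in marrow were also called in MEP, in the same direction. Over all tested genes, 229 of the 346 called higher in marrow (66.2%) were also called higher in MEP, and 347 of the 691 called lower (50.2%) were also lower, so a shared direction was common beyond this list. These 2 comparisons have no library in common, but share 1 fit and its estimate of the spread.

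**Figure D3:**
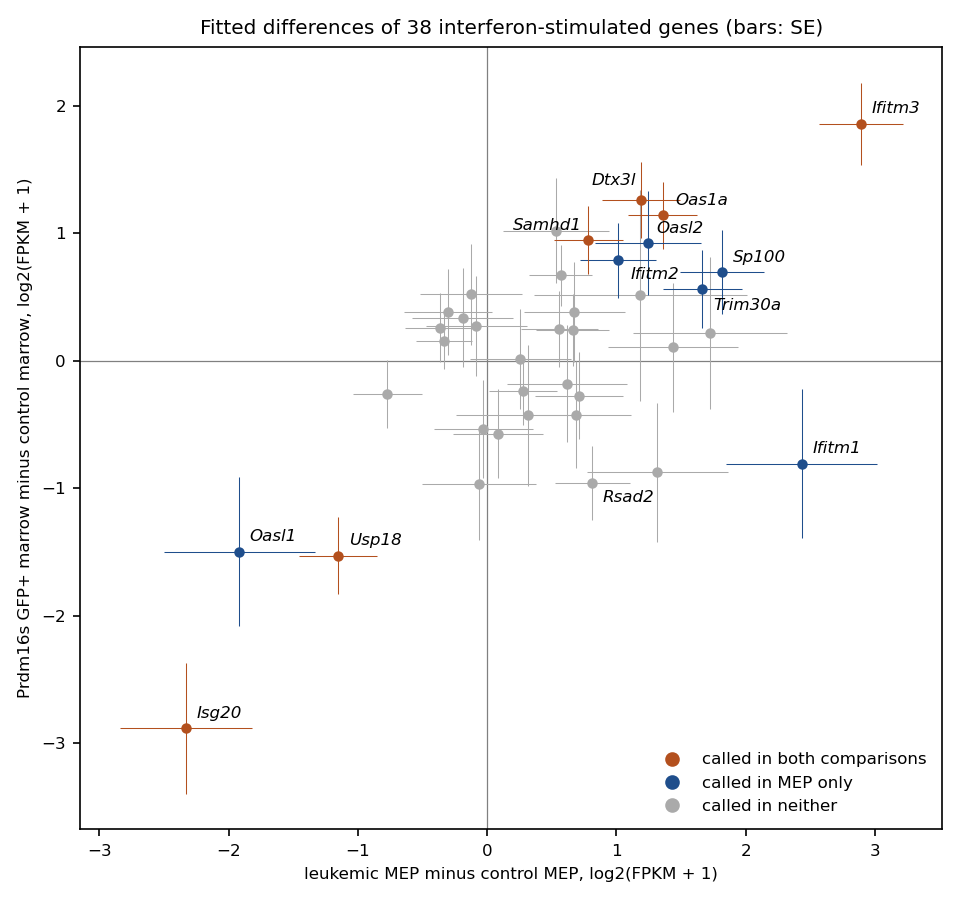
Fitted difference on the log2(FPKM + 1) scale of leukemic minus control MEP (horizontal axis) and of GFP+ minus control marrow (vertical axis) for the 38 tested genes, with bars for the SE and colours for the calls. The 6 genes called in both lie in the upper right (Ifitm3, Dtx3l, Oas1a, Samhd1) and lower left (Isg20, Usp18), and Ifitm1 and Rsad2 lie to the right and below 0.

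Of the membrane restriction factors, 3 of 4 rose in MEP and 1 of 4 in marrow. Ifitm3 (chromosome 7, 141009590 to 141010744, GRCm38) was at 55.3, 148 and 95.7 FPKM in the control MEP libraries and at 778, 802 and 529.7 in the leukemic MEP libraries. It was at 214, 316 and 246 FPKM in control marrow and at 978, 829 and 994 in GFP+ marrow. No Prdm16s library came near a control library of its population, and GFP+ marrow stood above leukemic MEP throughout. The rise was 2.89 ± 0.32 (SE) in MEP (limma, adjusted p = 6.27e-05) and 1.86 ± 0.32 in marrow (limma, adjusted p = 0.00355), and Ifitm3 was called in every alternative run in both. The rise in MEP was 3.09 without leukemic MEP 3.

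Ifitm2 (chromosome 7, 140954837 to 140959686), a close relative of Ifitm3, was at 313, 689.9 and 457 FPKM in control MEP and at 1127, 999 and 724 in leukemic MEP. In control marrow it was at 446, 609 and 572 FPKM, and in GFP+ marrow at 927, 903 and 958. The groups did not overlap in either population, though control MEP 2 came close to leukemic MEP 3. The rise in MEP was 1.01 ± 0.30 (limma, adjusted p = 0.0249). The marrow difference of 0.79 ± 0.30 did not pass the test (limma, adjusted p = 0.128), and the call in MEP was lost in 4 of 12 fits that left out 1 library: control MEP 1 or 3, or leukemic MEP 1 or 2 (highest adjusted p = 0.0889).

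Ifitm1 (chromosome 7, 140967429 to 140969827) parted from its relatives. It was at 13.5, 26.9 and 2.99 FPKM in control MEP and at 61.8, 89.9 and 43.8 in leukemic MEP. In marrow the order was turned: 76.4, 90.8 and 56.9 FPKM in control marrow stood against 24.4, 43.0 and 67.3 in GFP+ marrow, with overlap. The rise in MEP was 2.43 ± 0.59 (limma, adjusted p = 0.00968; 0.0627 in the fit of the MEP libraries alone), and the marrow difference was -0.81 ± 0.59 (limma, adjusted p = 0.439). Bst2, the fourth of this group, was at 76.4 ± 18.9 FPKM (SD, n = 3) in control MEP, 59.4 ± 3.92 in leukemic MEP, 71.9 ± 11 in control marrow and 80.1 ± 11.7 in GFP+ marrow, and was not called.

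Of the 5 oligoadenylate synthetases and their relatives, 2 rose and 1 fell in MEP, and 1 rose in marrow. The synthetases make a messenger that switches on RNase L, which cuts RNA. Oas1a (chromosome 5, 120896256 to 120907544) was at 7.28, 7.48 and 6.14 FPKM in control MEP and at 15.5, 15.9 and 29.3 in leukemic MEP. It was at 9.72, 11.7 and 8.48 FPKM in control marrow and at 25.5, 19.6 and 24.3 in GFP+ marrow. Each Prdm16s library lay above all 6 control libraries. The rise was 1.36 ± 0.27 in MEP (limma, adjusted p = 0.00293) and 1.14 ± 0.27 in marrow (limma, adjusted p = 0.0186). The marrow call was lost without control marrow 1, control marrow 3 or GFP+ marrow 1 (highest adjusted p = 0.0909).

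Oasl2 (chromosome 5, 114896926 to 114912245) and Oasl1 (chromosome 5, 114923143 to 114937911), neighbours that encode synthetase-like proteins, went in opposite directions in MEP. Oasl2 was at 2.81, 1.59 and 1.69 FPKM in control MEP and at 5.93, 3.0 and 11.7 in leukemic MEP. The lowest leukemic value stood just above the highest control value, and the rise of 1.25 ± 0.41 (limma, adjusted p = 0.0417) lost its call in 9 of 12 fits that left out 1 library, with an adjusted p of up to 0.121. Oasl1 was at 11.6, 8.2 and 8.24 FPKM in control MEP and at 0.821, 0.373 and 6.96 in leukemic MEP. Oasl1, whose protein is known to hold back translation of Irf7, fell by 1.92 ± 0.59 (limma, adjusted p = 0.0308). Leukemic MEP 3 was the least reduced, and without it the difference was -2.69 (adjusted p = 0.000554). Without control MEP 1, 2 or 3 or leukemic MEP 1 or 2 the call was lost (highest adjusted p = 0.0968).

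In marrow neither passed the test. Oasl2 was at 8.23 ± 2.15 FPKM (SD, n = 3) in control marrow and 16.8 ± 6.03 in GFP+ marrow, a difference of 0.92 ± 0.41 (limma, adjusted p = 0.193). Oasl1 was at 4.08, 4.37 and 5.46 FPKM in control marrow and at 2.08, 1.54 and 0 in GFP+ marrow, without overlap, a difference of -1.50 ± 0.59 (limma, adjusted p = 0.142). The 0 in GFP+ marrow 3 allows up to 0.0981 FPKM, the worth of 3 reads there, for counting error only. Oas2 was at 0.145, 0.484 and 0.283 FPKM in control MEP and at 1.35, 2.23 and 9.41 in leukemic MEP, and its difference of 1.73 ± 0.60 missed the threshold (limma, adjusted p = 0.0502). Oas3 was at 3.86 FPKM or less in each library, with overlapping groups.

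Within the Isg15 system and the TRIM ligases, 1 of 4 genes rose and 1 fell in MEP, and 1 fell in marrow. Usp18 (chromosome 6, 121245906 to 121270917), which removes Isg15 from proteins and shuts off signalling at the type I interferon receptor, was at 15.2, 15.9 and 13.3 FPKM in control MEP and at 5.53, 4.77 and 8.51 in leukemic MEP. In marrow it was at 14.4, 11.3 and 14.8 FPKM in the control libraries and at 4.49, 5.75 and 2.33 in the GFP+ libraries. All 6 Prdm16s values lay below all 6 control values. The MEP difference was -1.15 ± 0.30 (limma, adjusted p = 0.0147; 0.0535 without control MEP 2) and the marrow difference -1.53 ± 0.30 (limma, adjusted p = 0.00752), a fall in both.

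Isg15 (chromosome 4, 156199424 to 156200818), the ubiquitin-like mark itself and a standard readout of the type I response, was at 4.40, 10.3 and 11.1 FPKM in control MEP and at 13.5, 7.93 and 22.1 in leukemic MEP. It was at 9.39, 9.86 and 12.1 FPKM in control marrow and at 18, 9.80 and 15.0 in GFP+ marrow. The groups overlapped in both populations, and the differences of 0.67 ± 0.39 (limma, adjusted p = 0.23) and 0.38 ± 0.39 (limma, adjusted p = 0.601) did not pass the test. Trim30a (chromosome 7, 104409025 to 104465193), a TRIM ligase that restrains Toll-like receptor signalling, was at 4.76, 4.77 and 4.02 FPKM in control MEP and at 11.4, 13.7 and 28.4 in leukemic MEP. It rose by 1.67 ± 0.30 (limma, adjusted p = 0.00192). Its marrow difference, 0.56 ± 0.30, was not called (limma, adjusted p = 0.293), although all 3 GFP+ values lay above the control ones. Trim25, a ligase that helps the RNA sensor RIG-I, was between 5.46 and 19.6 FPKM over the 12 libraries and was not called.

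Each of the nucleotide and RNA enzymes moved in its own way. Isg20 (chromosome 7, 78913396 to 78920396), an exonuclease that degrades RNA, was at 51.7, 96.3 and 75.1 FPKM in control MEP and at 21.2, 15.4 and 7.44 in leukemic MEP. In marrow it was at 34.9, 63.3 and 51.2 FPKM in the controls and at 10.2, 8.82 and 1.72 in the GFP+ libraries. The highest Prdm16s value lay below the lowest control value. In the fit of all 12 libraries its fall was the largest of the list in each population. The difference was -2.33 ± 0.51 in MEP (limma, adjusted p = 0.00596) and -2.88 ± 0.51 in marrow (limma, adjusted p = 0.004). Isg20 was called in every alternative run. In MEP, Oasl1 fell more than Isg20 without leukemic MEP 3, by -2.69 against -1.94. It also fell more with limma's voom on the whole reads, by -3.57 against -2.04.

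Samhd1 (chromosome 2, 157097534 to 157135096), which breaks down deoxynucleotides, was at 6.05, 6.24 and 5.63 FPKM in control MEP and at 9.88, 8.05 and 16.5 in leukemic MEP. It was at 12.3, 11.5 and 11.4 FPKM in control marrow and at 20.3, 21.0 and 30.3 in GFP+ marrow. The rise was 0.78 ± 0.27 in MEP (limma, adjusted p = 0.0488) and 0.95 ± 0.27 in marrow (limma, adjusted p = 0.0464). Both stood close to the threshold: each was lost in 10 of 12 fits that left out 1 library (highest adjusted p 0.131 and 0.149). In MEP the call held only without leukemic MEP 2 or GFP+ marrow 3, and in marrow only without leukemic MEP 2 or 3.

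Rsad2 (chromosome 12, 26442743 to 26456452), the gene for viperin, which makes a chain-ending nucleotide, was at 1.76, 2.29 and 1.03 FPKM in control MEP and at 3.41, 3.57 and 3.97 in leukemic MEP. It was at 7.52, 9.11 and 6.83 FPKM in control marrow and at 2.61, 3.07 and 5.20 in GFP+ marrow. The groups did not overlap in either population and lay in opposite order. Neither difference passed the test alone, at 0.81 ± 0.29 in MEP (limma, adjusted p = 0.0579) and -0.96 ± 0.29 in marrow (limma, adjusted p = 0.0606).

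Of Parp9, Dtx3l and Parp14, 1 rose in each population. Dtx3l (chromosome 16, 35926515 to 35939027), a ubiquitin ligase that works as a pair with Parp9, was at 7.89, 6.35 and 8.36 FPKM in control MEP and at 12.8, 15.4 and 31.1 in leukemic MEP. It was at 9.98, 9.75 and 7.2 FPKM in control marrow and at 21.0, 22.5 and 24.8 in GFP+ marrow, so that all 6 Prdm16s values lay above all 6 control values. The rise was 1.19 ± 0.30 in MEP (limma, adjusted p = 0.012; 0.0707 in the fit of the MEP libraries alone) and 1.26 ± 0.30 in marrow (limma, adjusted p = 0.0205), where it was lost without any 1 control library or without GFP+ marrow 2 or 3 (highest adjusted p = 0.0991). Parp9 was at 7.21 ± 1.75 FPKM (SD, n = 3) in control MEP, 5.31 ± 0.51 in leukemic MEP, 6.68 ± 2.03 in control marrow and 7.99 ± 0.76 in GFP+ marrow and was not called. The annotated spans of Dtx3l and Parp9 overlap, and whether counting used strand is not given in the sources used here, so reads of the overlap cannot be assigned. Parp14, a relative of Parp9, was at 2.72 FPKM or less in each library.

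**Figure D4:**
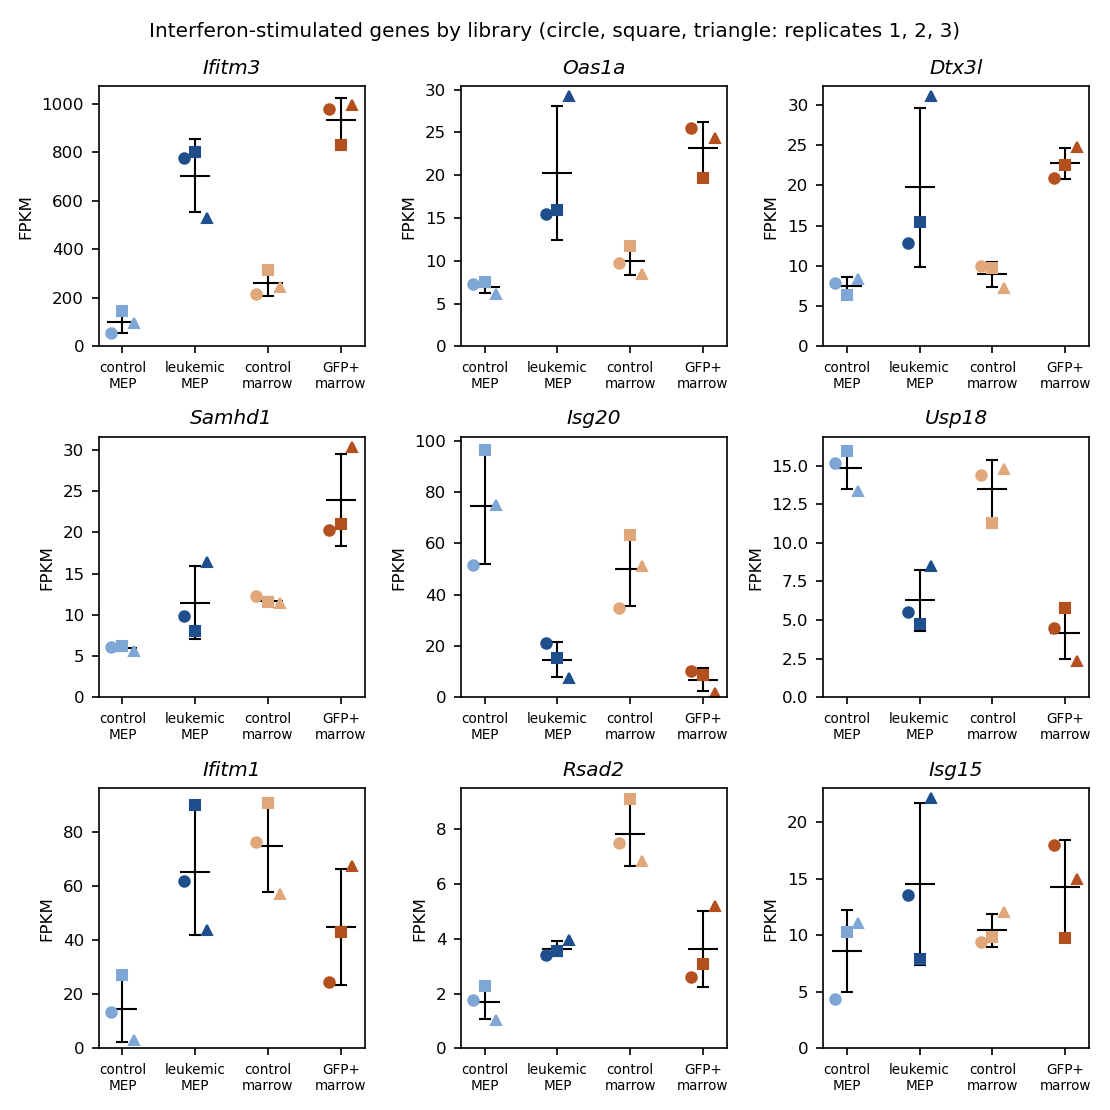
FPKM of 9 genes in the 12 libraries, 1 panel a gene, with circles, squares and triangles for replicates 1, 2 and 3 and a line and bars for the mean and SD (n = 3). Ifitm3, Oas1a, Dtx3l and Samhd1 are higher and Isg20 and Usp18 lower in both Prdm16s populations, Ifitm1 and Rsad2 change order between MEP and marrow, and the Isg15 groups overlap.

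Sp100 (chromosome 1, 85649948 to 85709998), a protein of PML nuclear bodies, was at 11.6, 7.57 and 7.68 FPKM in control MEP and at 25.4, 25.3 and 58.2 in leukemic MEP. It rose by 1.82 ± 0.33 (limma, adjusted p = 0.00173). In marrow it was at 34.3, 25.2 and 23.6 FPKM in the controls and at 50.6, 34.4 and 51.9 in the GFP+ libraries, a difference of 0.70 ± 0.33 that did not pass the test (limma, adjusted p = 0.219). The values of GFP+ marrow 2 and control marrow 1 nearly met. Sp100 was the 1 gene called among 5 in its group, and Ifi35, Ifi44, Rtp4 and Xaf1 had differences between -0.96 and 0.56 over both comparisons.

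In 3 role groups, none of the genes was called in MEP or in marrow. Over all tested genes, 26% were called in MEP and 9.05% in marrow. Role groups hold few genes each, and their counts, here and above, were not tested against these shares. The nucleic acid sensors and signalling genes were Ifih1, Dhx58, Zbp1, Eif2ak2 and Stat2, and 0 of 5 were called in MEP (limma; 0 at an unadjusted p under 0.05, and 0 with voom on the recovered reads) and 0 of 5 in marrow (1 at an unadjusted p under 0.05, 0 with voom). The highest of them on average, Dhx58, a helicase that tunes the RIG-I-like sensors, was at 7.47, 8.67 and 7.06 FPKM in control MEP and at 8.09, 2.69 and 12.3 in leukemic MEP. In control marrow it was at 9.81, 8.34 and 11.5 FPKM and in GFP+ marrow at 13.7, 10.2 and 14.6. Its differences were -0.19 ± 0.39 and 0.34 ± 0.39, with leukemic MEP spread widest.

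Of the Ifit genes, whose proteins bind foreign RNA ends and block translation, 0 of 3 were called in MEP (1 at an unadjusted p under 0.05, 0 with voom) and 0 of 3 in marrow (0 and 0). Ifit2, the highest on average, was at 4.81, 1.29 and 2.05 FPKM in control MEP and at 5.21, 6.60 and 2.12 in leukemic MEP. In control marrow it was at 8.10, 3.88 and 4.25 FPKM and in GFP+ marrow at 6.98, 4.69 and 2.54. Its differences were 0.62 ± 0.46 and -0.18 ± 0.46. Ifit1 was at 1.34 ± 0.88 FPKM (SD, n = 3) in control MEP and 4.79 ± 2.0 in leukemic MEP, without overlap (1.32 ± 0.55, limma, adjusted p = 0.0969). Ifit3 was at 0 to 0.367 FPKM in all 6 MEP libraries and at 1.59 to 2.32 in control marrow. In leukemic MEP 3, 3 reads would be worth 2.51 FPKM, so its 0 cannot be told from the marrow levels.

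Of the GTPases, 0 of 6 tested were called in MEP (4 at an unadjusted p under 0.05, 2 with voom, Gbp2 and Ifi47) and 0 of 6 in marrow (1 and 0). These proteins act on the vacuoles of intracellular microbes, except the Mx proteins, which trap viral particles and are defective in most laboratory mouse strains. Ifi47 (chromosome 11, 49076587 to 49096987), the highest on average, was at 45.2, 44.1 and 45.9 FPKM in control MEP and at 99.7, 79.6 and 46.6 in leukemic MEP. In control marrow it was at 84.4, 65.4 and 69.5 FPKM and in GFP+ marrow at 99.6, 104 and 61.6. The control MEP libraries lay close together, and leukemic MEP 3 lay just above them. Its differences were 0.66 ± 0.28 in MEP (limma, adjusted p = 0.105) and 0.24 ± 0.28 in marrow.

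Gbp2 (chromosome 3, 142620663 to 142638008), which helps open pathogen vacuoles, gained a call when leukemic MEP 3 was left out. It was at 2.23, 1.21 and 1.76 FPKM in control MEP and at 12.7, 15.9 and 0 in leukemic MEP, where 3 reads in leukemic MEP 3 would be worth 2.05 FPKM. Its difference was 1.19 ± 0.82 with that library (limma, adjusted p = 0.312) and 2.5 without it (adjusted p = 0.000411). Gbp3 was at 1.98 ± 0.88 FPKM (SD, n = 3) in control MEP and 8.25 ± 6.59 in leukemic MEP, without overlap, a difference of 1.44 ± 0.51 (limma, adjusted p = 0.0542). Irgm1, a regulator of the class, was at 92.5, 64.6 and 58.3 FPKM in control MEP and at 54.4, 41.2 and 30.1 in leukemic MEP, all below, a difference of -0.77 ± 0.27 (limma, adjusted p = 0.0501). Mx1 was at 2.5 FPKM or less in every library and Mx2 at 2.77 or less.

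The change in MEP was then set against the change in marrow by the difference between them. Ifitm1 (3.24 ± 0.83, limma, adjusted p = 0.0443) and Rsad2 (1.78 ± 0.41, limma, adjusted p = 0.029) were called, both with the MEP value above the marrow value, where 4.52% of all genes were called in that direction, and 0 of the 38 were called the other way (limma; 0.366% of all genes). For Rsad2, and for Ifitm1 too, the MEP value was above 0 and the marrow value below it, and of these only the rise of Ifitm1 in MEP passed the test. These 2 of 38 (5.26%) stand beside 4.89% of all genes in either direction. Ifitm1 lost the call in 9 of 12 fits that left out 1 library (all except control MEP 2, leukemic MEP 3 and GFP+ marrow 3; highest adjusted p = 0.113), and Rsad2 in 8 of 12 (all except control MEP 2, leukemic MEP 2 and 3 and GFP+ marrow 3; highest adjusted p = 0.0961). Without leukemic MEP 3 they were 3.49 and 1.73, each with adjusted p = 0.0217, and Gbp2 was called as well (1.98, adjusted p = 0.0258), where 7.63% of all genes were called in that direction and 1.84% in the other. For Isg20, Usp18, Oas1a, Dtx3l and Samhd1 the differences of changes were 0.55 ± 0.72, 0.38 ± 0.43, 0.22 ± 0.38, -0.07 ± 0.42 and -0.16 ± 0.38, none called.

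The same libraries also allow the populations to be set against each other, and these comparisons share libraries with those above. In control mice, 10 of the 38 were lower in MEP than in marrow (12.3% of all genes) and 0 were higher (limma; 2.63% of all genes). Together, 26.3% of the 38 were called where 15% of all genes were. For 17 genes (44.7%) each control MEP library lay below each control marrow library (26.1% of all genes), and for 1 above (20.3% of all genes). The differences that stood farthest from 0 were Ifitm1 at -2.66 ± 0.59 (limma, adjusted p = 0.00812), Gbp3 at -2.04 ± 0.51 (limma, adjusted p = 0.016), Rsad2 at -1.73 ± 0.29 (limma, adjusted p = 0.00143) and Oasl2 at -1.60 ± 0.41 (limma, adjusted p = 0.0191). The calls of Gbp3 and Oasl2 were each lost without any 1 of 4 control libraries (highest adjusted p 0.0822 and 0.0841). The other 6 lay between -0.87 and -1.53. Without leukemic MEP 3, 13 were called lower (17.1% of all genes) and 0 higher (limma; 7.32%). Without control MEP 2 or 3 or control marrow 1, 4 were. Markers of several cell types moved with these genes: 9 of 9 mature neutrophil, 5 of 5 primary granule, 9 of 10 monocyte and macrophage, 4 of 5 dendritic, 5 of 5 B cell and 4 of 5 T and NK cell markers tested were lower in control MEP, and their part was not tested.

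Between the Prdm16s populations, 0 of the 38 were called (limma; 3.05% of all genes, 0.977% higher in leukemic MEP and 2.08% lower; 5 of the 38 at an unadjusted p under 0.05, and 4 by voom on the recovered reads: Dhx58, Isg20, Oasl2 and Samhd1). Of all 11462 tested genes, voom called 648 higher and 1132 lower in leukemic MEP. In 5 genes each leukemic MEP library lay below each GFP+ library (13.2%, against 8.3% of all genes), and in 0 above (7.62%). Zbp1, a sensor that can start necroptosis and was picked after its values were seen, had the difference farthest below 0, -1.35 ± 0.41 (limma, adjusted p = 0.096). Its leukemic MEP levels of 4.94, 1.58 and 0.774 FPKM stood against 8.21, 5.57 and 6.49 in GFP+ marrow. The level in leukemic MEP 3 rested on 1 read and that in GFP+ marrow 2 on 13 reads. Without leukemic MEP 3, Samhd1 (-1.30, adjusted p = 0.00176), Oasl2 (-1.70, adjusted p = 0.00567) and Dhx58 (-1.24, adjusted p = 0.0274) were called lower in leukemic MEP, where 9.96% of all genes were, and 0 higher (5.56%).

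Of 31 other tested genes of the interferon pathway, inhibitors among them, 7 were called in MEP (22.6%, against 26% of all genes). Voom on the recovered reads called 11, where it called 1852 of the 11462 genes higher and 1538 lower. The 12 interferon ligands were below the filter: 10 were at 0 in all 12 libraries, Ifnk was at 0.219 FPKM in leukemic MEP 1 and 2.26 in GFP+ marrow 2, and Ifng at 0.179 and 0.21 in control marrow 2 and 3. Of 6 receptor chains, limma called Ifngr1 in MEP, and voom called Ifngr1, Ifngr2 and Il10rb. It was at 445, 336 and 350.5 FPKM in control MEP and at 116, 110.2 and 269.6 in leukemic MEP, and fell by 1.30 ± 0.30 (limma, adjusted p = 0.00797; 0.0697 in the fit of the MEP libraries alone and 0.0558 with quantile normalization). In control marrow it was at 351, 285 and 323 FPKM and in GFP+ marrow at 409, 422 and 399, a difference of 0.36 ± 0.30 (limma, adjusted p = 0.505). It was also lower in leukemic MEP than in GFP+ marrow, by -1.44 ± 0.30 (limma, adjusted p = 0.0291), a call lost in 9 of 12 fits that left out 1 library (highest adjusted p = 0.128). It was -1.85 without leukemic MEP 3. The changes of Ifngr1 in MEP and marrow differed by -1.67 ± 0.43 (limma, adjusted p = 0.0446), a call lost in 11 of 12 such fits (highest adjusted p = 0.118).

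Of 11 kinases and transcription factors, Irf1 and Irf5 rose in MEP. Irf1 was at 4.98, 2.72 and 2.62 FPKM in control MEP and at 17.2, 5.61 and 28.9 in leukemic MEP, and rose by 1.83 ± 0.45 (limma, adjusted p = 0.0108; 0.0779 in the fit of the MEP libraries alone). Irf5 was at 0.177 ± 0.159 FPKM (SD, n = 3) in control MEP and 1.74 ± 1.38 in leukemic MEP (1.11 ± 0.36, limma, adjusted p = 0.0415), a call lost in 8 of 12 fits that left out 1 library (highest adjusted p = 0.144). In marrow it was at 11.8, 10.9 and 7.34 FPKM in the controls and at 3.88, 2.45 and 4.5 in the GFP+ libraries (-1.26 ± 0.36, limma, adjusted p = 0.0502), and its changes differed between MEP and marrow by 2.37 ± 0.51 (limma, adjusted p = 0.0212; lost in 5 of 12 fits, highest adjusted p = 0.0708). Irf1, Irf5 and Irf8 were lower in control MEP than in control marrow, as were Ifnar1, Tmem173, Tlr7, Ikbke and Ptpn6. These were 8 of the 31 tested pathway genes (25.8%, against 15% of all genes). Irf7, which amplifies the type I response, and Irf9, the DNA-binding part of the complex on the ISRE, were not called in any comparison. Irf7 was at 14.7 ± 3.12, 8.49 ± 2.99, 16.1 ± 1.11 and 10.5 ± 5.63 FPKM (SD, n = 3) in control MEP, leukemic MEP, control marrow and GFP+ marrow, and Irf9 at 37.1 ± 9.0, 39.7 ± 4.72, 31.8 ± 3.38 and 38.9 ± 11.4.

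Of 9 upstream sensors and adaptors tested, 2 rose in MEP. Neither was among the 39. Tmem173, the gene for STING, which signals foreign DNA, was at 0.42, 2.16 and 0.121 FPKM in control MEP and at 9.64, 5.21 and 51.6 in leukemic MEP (3.14 ± 0.66, limma, adjusted p = 0.00458; 0.0503 in the fit of the MEP libraries alone), and without leukemic MEP 3 the rise was 2.25 (adjusted p = 0.00336). Ddx58, the gene for RIG-I, was at 1.69, 0.841 and 1.35 FPKM in control MEP and at 4.36, 3.78 and 10.7 in leukemic MEP (1.56 ± 0.38, limma, adjusted p = 0.01). Of 5 inhibitors, Ptpn6, the gene for the phosphatase SHP-1 (1.37 ± 0.24, limma, adjusted p = 0.00139) and Pias1 (0.71 ± 0.22, limma, adjusted p = 0.0335), whose product restrains interferon signalling, rose in MEP. Pias1 lost its call in 5 of 12 fits that left out 1 library (highest adjusted p = 0.126). In marrow, limma called 0 of the 31 pathway genes, against 9.05% of all genes. These were 0 of 6 receptors (0 at an unadjusted p under 0.05, 0 with voom) and 0 of 11 kinases and factors (1 and 0). The rest were 0 of 9 sensors and adaptors (2 and 1) and 0 of 5 inhibitors (2 and 0).

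Some of these genes lie in families or overlaps where reads can be hard to place. The Ifit, Oas, Ifitm, Gbp and Trim30 genes have near relatives, the span of Ifit1 overlaps that of Ifit1bl1, and how the counting treated reads that match more than 1 place is not given in the sources used here. Values of single genes in these families carry that doubt. Fold changes on the log2(FPKM + 1) scale understate the change of genes under a few FPKM, among them the Ifit, Mx and Oas2 values.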

How the data were processed

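RNA of sorted cells was made into Smart-seq2 libraries, an amplified full-length method, per the labels' protocols, and 12 libraries in 4 groups of 3 were used. The authors deposited 1 table of FPKM values, and the submitters' processing notes name CASAVA, bcl2fastq, STAR 2.5.3a, DESeq2 1.18.1 and the mm10 genome. No source used here gives the read counter, the annotation or the use of strand.

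The values of all 16728 genes above 0 came out as whole reads within a tolerance of 0.02, which gave the depths and the worth of 3 reads. The scaling of each library recovered in this way was proportional to its median-of-ratios size factor. Genes at 1 FPKM or more in at least 3 libraries (11462) were tested as log2(FPKM + 1) with limma 3.58.1 (R 4.3.3, limma-trend), all 4 groups in 1 fit with 8 residual degrees of freedom, and called at a Benjamini-Hochberg adjusted p under 0.05 over all of them. An exact test of 3 libraries against 3 cannot go below p = 0.1. The steps were tested on simulated data. On the recovered reads, limma's voom called 1852 genes higher and 1538 lower in MEP, against 1567 and 1409, and 804 and 1104 in marrow, against 346 and 691.

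The 39 genes, the pathway lists and the cell markers were chosen with earlier results of these data known. Genes described in full were, in the 2 comparisons of Prdm16s with control cells, all called genes, and in the others the 4 with the largest difference in each direction. For a role group without a call it was the gene with the highest mean, and for the pathway Irf7, Irf9 and the 2 called genes of each list with the smallest p. One gene that the rule also names is not reported here. Values of the remaining genes account for the list. Promoters and positions are from RefSeq (GRCm38.p6), matched by gene ID for all 39 genes. Alternatives were the pseudocount, the filter, rescaling, quantile normalization, voom, array weights, a fit of the compared groups alone, a replicate block and leaving out each library. Leaving out the 2 libraries under 2 M reads was chosen after seeing the depths.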

Additional observations from a re-analysis of the deposited data

Results flagged for a closer look

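For 2 of the 38 tested genes (5.26%, against 4.89% of all genes) and 2 of 31 genes of the pathway (6.45%), limma's test called a difference between the change in MEP and the change in marrow. The values, as the MEP change minus the marrow change on the log2(FPKM + 1) scale, were 3.24 for Ifitm1 (adjusted p = 0.0443), 1.78 for Rsad2 (adjusted p = 0.029), 2.37 for Irf5 (adjusted p = 0.0212) and -1.67 for Ifngr1 (adjusted p = 0.0446). These calls were lost in 9, 8, 5 and 11 of the 12 fits that left out 1 library. Ifitm1, Rsad2 and Irf5 stood higher in leukemic than in control MEP in all 3 libraries. Rsad2 and Irf5 stood lower in all 3 GFP+ marrow libraries than in control marrow, and Ifitm1 overlapped there. Ifngr1 stood lower in all 3 leukemic MEP libraries and higher in all 3 GFP+ marrow libraries. Monocyte and macrophage markers moved with these genes: 5 of 10 had a called difference above 0, and their sum was 1277 FPKM in leukemic MEP 3 against 14 and 12.2 in leukemic MEP 1 and 2. Without leukemic MEP 3 the differences of Ifitm1, Rsad2, Irf5 and Ifngr1 were 3.49, 1.73, 2.44 and -2.08.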

How the results depend on the processing

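No result reversed under any alternative run. Ifitm3, Isg20 and, in MEP, Oas1a, Trim30a and Sp100 were called in all 22 alternatives, as was Usp18 in marrow. The counts of the 39 genes called were 9 higher and 3 lower in MEP, 4 higher and 2 lower in marrow, 2 for the difference between the changes, 10 between the control populations and 0 between the Prdm16s populations. Array weights gave 21 higher in MEP, 11 higher and 4 lower in marrow and 7 for the difference. They gave 19 between control populations and 10 between Prdm16s populations. They also raised the calls over all 11462 genes, in MEP to 3251 higher and 2900 lower and in marrow to 1547 and 1906. For the difference these were 1962 and 1004, between control populations 2473 and 3038, and between Prdm16s populations 1512 and 1773. Fits of the compared groups alone gave 4 higher in MEP, with 957 over all genes. They gave 16 between control populations, where 1247 of all genes were higher in MEP and 2394 lower. Equal FPKM totals gave 2 higher and 3 lower in marrow, with 194 and 845 over all genes. With voom on the recovered reads there were 7 higher and 4 lower in marrow and 4 between Prdm16s populations. Over all genes voom called 804 higher and 1104 lower in marrow and 648 and 1132 between Prdm16s populations. Quantile normalization gave 6 between control populations, with 724 higher and 1084 lower over all genes. The difference between the changes was called for 1 gene each with a pseudocount of 0.1, with no filter, with a filter over 6 libraries and with the replicate block. Over all genes these runs called 521, 513, 361 and 470 higher and 39, 56, 23 and 20 lower, in that order. Without the 2 libraries under 2 M reads, 5 were called between Prdm16s populations, with 644 higher and 1144 lower over all genes. Leaving out each library in turn gave 6 to 13 higher and 1 to 4 lower in MEP, 1 to 5 higher and 2 to 4 lower in marrow, 0 to 3 for the difference, 4 to 13 between control populations and 0 to 3 between Prdm16s populations. The causes were not tested.

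Whether the replicate numbers pair the samples is not settled. Correlations were taken of the deviations from the group means. For same-numbered libraries they were 0.50, 0.29 and 0.07 between control populations and 0.09, 0.22 and 0.15 between Prdm16s populations, all above 0. Differently numbered libraries ran from -0.45 to 0.23 between control populations and from -0.17 to 0.06 between Prdm16s populations. Same-numbered libraries were at -0.16, -0.05 and -0.15 within MEP and 0.02, -0.06 and 0.02 within marrow. The main fit used no pairing. The replicate block gave 9 higher and 4 lower in MEP, where Irgm1 (-0.77, adjusted p = 0.0159) and Gbp3 (1.44, adjusted p = 0.0467) gained a call and Samhd1 lost it, 3 higher and 2 lower in marrow, 9 between control populations and 0 between Prdm16s populations. Over all 11462 genes the block called 1500 higher and 1330 lower in MEP and 297 and 635 in marrow. Depth limits the genes of low level most, since 3 reads are worth 2.51 FPKM for Ifit3 in leukemic MEP 3 and 0.135 in leukemic MEP 1.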

Other observations

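GFP+ marrow 3 held 5 of the 39 genes at 0, more than any other library, although it had 9.44 M reads. They were Ifit1, Ifit3, Oas3, Oasl1 and Ifi44, and were picked after their values were seen. In GFP+ marrow 1 and 2, Ifit1 was at 2.90 and 3.16 FPKM, Ifit3 at 1.99 and 1.85, Oas3 at 2.34 and 3.86, Oasl1 at 2.08 and 1.54, and Ifi44 at 1.21 and 1.59. In GFP+ marrow 3 the worth of 3 reads ran from 0.0702 FPKM for Oas3 to 0.177 for Ifit3, for counting error only. Other genes of the list had their highest value of the 12 in the same library: Ifih1 at 8.03 FPKM, Stat2 at 12.5, Oasl2 at 23.2 and Samhd1 at 30.3. Without this library the marrow differences of the 5 genes were -0.20 for Ifit1, -0.02 for Ifit3, 0.24 for Oas3, -1.0 for Oasl1 and -0.54 for Ifi44 on the log2 scale, none called (limma, adjusted p 0.358 or more).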
